A study of Mus musculus with 3 samples.

Results

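The genes described here are 7 of the 32285 in the deposited tables, named as transcription factors of the natural killer (NK) cell and innate lymphoid cell (ILC) lineages and not picked by a threshold on their values. They are the T-box factors *Eomes* and *Tbx21* (T-bet), the zinc finger repressors *Zfp683* (Hobit) and *Prdm1* (Blimp-1), the nuclear receptor gene *Rora*, the zinc finger factor gene *Gata3*, and *Id2*. They were measured in tumor-infiltrating lymphocytes (TILs) from subcutaneous tumors of MC38-Ova, a mouse colon adenocarcinoma line that carries ovalbumin. The hosts were Kaede mice on the C57BL/6 background, labelled wild type, in which a green fluorescent protein turns red for good under violet light. Mice of all 3 libraries had received 250000 tumor cells and an isotype control treatment, the tumors were lit on day 13, and the cells were taken on day 15, 48 h later. Live CD45+ TER119- Kaede+ cells were sorted without the CD11b+ NK1.1- myeloid cells. Kaede-green cells, which had entered the tumor after the light, made up 2 libraries, labelled as biological replicates and called Kaede-green 1 and Kaede-green 2 here. Kaede-red cells, which had been in the tumor at that time, made up 1 library without a replicate number. The study's methods give an age range of adult mice for the project as a whole and state that mice were sex-matched within an experiment. The number of animals behind each of these libraries, and their own age and sex, are not given in the sources used here.

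T-bet and Eomes are related activators that NK cells need to mature, and that bind genes of killing and of IFNγ production. Conventional NK cells carry both, whereas type 1 ILCs carry T-bet with little Eomes. Hobit and Blimp-1 are related repressors that lower genes of tissue exit in resident lymphocytes, and Blimp-1 also acts in effector regulatory T (Treg) cells. RORα and GATA3 are best known from type 2 ILCs, and RORα also from T cells that make IL-17. Id2 has no DNA-binding part of its own: it holds E proteins off DNA and is needed by all ILCs and NK cells.

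On GRCm38, *Eomes* lies on the plus strand of chromosome 9 from 118478212 to 118486132 and *Rora* on the plus strand of the same chromosome from 68653786 to 69388246. *Tbx21* (chromosome 11, 97098071 to 97115331), *Prdm1* (chromosome 10, 44437177 to 44528501), *Gata3* (chromosome 2, 9857078 to 9890034) and *Id2* (chromosome 12, 25093799 to 25097140) lie on minus strands. *Zfp683* lies on the plus strand of chromosome 4 from 134053838 to 134058996. The annotation overlaps *Eomes* with *Gm33460* and *Rora* with *Gm15511* on the opposite strand, and *Gata3* with *9230102O04Rik* on its own strand and with 2 more gene models on the other. The 250 bases before the RefSeq start were found for 6 of the 7 genes. They are printed for the 3 genes whose levels parted the cell groups most widely, with the motifs found in them. In *Eomes* the capitals mark overlapping TATA box letters that begin 31 and 30 bases before the start, in *Prdm1* they mark E-box letters 168 and 87 bases before it, and in *Rora* no motif that was searched for is present. The windows, on GRCm38.p6 and 5′ to 3′, lie at chr9:118477939-118478188 on the plus strand (*Eomes*), chr10:44458749-44458998 on the minus strand, inside the annotated span of the gene (*Prdm1*), and chr9:68653536-68653785 on the plus strand (*Rora*).
Eomes: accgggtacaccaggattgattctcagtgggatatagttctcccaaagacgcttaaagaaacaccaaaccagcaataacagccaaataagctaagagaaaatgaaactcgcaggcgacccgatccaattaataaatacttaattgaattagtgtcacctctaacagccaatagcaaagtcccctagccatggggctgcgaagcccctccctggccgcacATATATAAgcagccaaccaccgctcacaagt
Prdm1: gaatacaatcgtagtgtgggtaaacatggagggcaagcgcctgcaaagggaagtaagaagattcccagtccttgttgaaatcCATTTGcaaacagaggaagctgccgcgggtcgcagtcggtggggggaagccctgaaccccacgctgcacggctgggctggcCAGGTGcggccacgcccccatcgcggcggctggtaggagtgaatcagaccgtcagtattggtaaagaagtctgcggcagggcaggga
Rora: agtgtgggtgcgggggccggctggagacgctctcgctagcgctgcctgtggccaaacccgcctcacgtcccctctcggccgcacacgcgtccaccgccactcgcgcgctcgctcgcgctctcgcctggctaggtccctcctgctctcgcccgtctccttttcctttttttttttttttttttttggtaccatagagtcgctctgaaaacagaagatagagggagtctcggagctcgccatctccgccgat

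The motifs were searched for on both strands of the 250 bases. The T-box letters AGGTGT were in none of the 6 windows, against 11.8% of all 32851 RefSeq windows of this length. The same held for the GATA letters AGATAA (9.99% of all windows). It also held for the ROR letters AGGTCA (14.0%). No window of the 6 had the Blimp-1 and Hobit letters GTGAAAG, which 3.57% of all windows had. E-box letters (CANNTG), which E proteins bind and which can overlap the T-box letters, were in the windows of *Tbx21*, *Prdm1* and *Id2*, and in 66.2% of all windows. A TATA box was searched for as the letters TATAAAA, the same ending in T, and both again with T as the fifth letter. It was in the *Eomes* window alone and in 11.5% of all windows. The GC box (GGGCGG) was in the windows of *Tbx21*, *Gata3* and *Id2* and in 32.7% of all windows. These matches are letters in a window and were not tested as binding sites.

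The counts are unique molecular identifiers (UMIs), 1 per captured transcript, from droplet libraries that read the 3′ ends of transcripts. After filters and removal of doublets, 9524, 10516 and 10561 cells were kept in Kaede-green 1, Kaede-green 2 and Kaede-red, with a median of 6458, 8329.5 and 11817 UMIs. The libraries shared 20 to 36 cell barcodes in pairs. Cells were assigned to gates by raw UMIs. NK cells (8357) had at least 1 UMI of *Ncr1* and at most 1 of *Cd3e*. Those with a UMI of *Itgam*, the CD11b gene of circulating NK cells, were called *Itgam*+ NK cells, and those with a UMI of *Itga1*, the CD49a gene of tissue-resident NK cells and type 1 ILCs, *Itga1*+ NK cells. NK cells with a UMI of *Tmem176b*, which is high in ILCs, were called *Tmem176b*+ NK cells. CD8 T cells had 2 UMIs of *Cd3e* or more with *Cd8a* and *Cd8b1*, Treg cells 2 UMIs of *Cd3e* or more with *Foxp3*, and γδ T cells a UMI of *Cd3e* with *Cd163l1*, a scavenger receptor of IL-17-producing γδ T cells.

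In the order Kaede-green 1, Kaede-green 2 and Kaede-red, in which values of single libraries are given throughout, the gates held 420, 297 and 76 *Itgam*+ NK cells, 309, 482 and 1523 *Itga1*+ NK cells, and 130, 215 and 418 *Tmem176b*+ NK cells. There were 2116, 2965 and 3920 CD8 T cells, 339, 647 and 659 Treg cells, and 197, 132 and 248 γδ T cells. A total of 579 cells that met more than 1 of the 5 gates other than *Tmem176b*+ NK were left out of those 5. Of the 763 *Tmem176b*+ NK cells, 339 also held *Itga1* and 22 *Itgam*. Levels are in CPM, the UMIs of a gene summed over a gate in 1 library per 1000000 UMIs of the same cells. The 6 NK markers, of which *Eomes* is 1, summed to 9963 to 15890 CPM in *Itgam*+, 4213 to 6754 CPM in *Itga1*+ and 2120 to 4184 CPM in *Tmem176b*+ NK cells, against 1029 to 1510 CPM in CD8 T cells. The 6 ILC markers, which hold *Rora*, *Gata3* and *Tmem176b*, summed to 689 to 945 CPM in *Tmem176b*+ NK cells and to 124 to 208 CPM in *Itga1*+ and 126 to 161 CPM in *Itgam*+ NK cells, but also to 641 to 756 CPM in CD8 T, 712 to 952 CPM in Treg and 2522 to 3641 CPM in γδ T cells. CD8 T markers (4033 to 4649 CPM), Treg markers (3513 to 4180 CPM) and γδ T markers (3894 to 6668 CPM) were highest in the gates named for them, with no more than 192, 541 and 162 CPM in any NK gate. The NK, ILC and T cell lists hold genes that define the gates (*Ncr1*, *Tmem176b*, *Cd3e*, *Cd8a*, *Cd8b1*, *Foxp3* and *Cd163l1*). Their order was therefore partly set by the gating and is no independent check of the gates. All 8 myeloid markers were found in *Itgam*+ NK cells, at 83.5, 536 and 312 CPM in sum, against 45.6 to 86.9 CPM in *Itga1*+ NK cells. The 4 cycling markers summed to 33.8 to 59.3 CPM in *Itgam*+ and 158 to 433 CPM in *Itga1*+ NK cells, and mast cell and tumor epithelial markers stayed at or below 108 and 13.9 CPM in every gate. *Itga1*+ NK cells of Kaede-red were also deeper (median 24478 UMIs) than *Itgam*+ NK cells (5338.5 to 6701 UMIs in the 3 libraries). Separate alternative settings left out cells with cycling UMIs, cells with B cell or macrophage UMIs, and cells outside 4000 to 12000 UMIs. Beyond the values given from such settings, the part of these differences in the results was not tested.

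Levels are given as mean ± SD of the CPM in the 3 libraries. In such sums, fewer cells with a transcript and fewer transcripts per cell cannot be told apart. Differences were tested with the quasi-likelihood test of edgeR on the sums, with the library as a block and Benjamini-Hochberg adjustment over all genes tested, and a gene was called at an adjusted p under 0.05. With this block, the p-values measure only how the differences between gates varied over 3 libraries. The 5 gates that share no cell were fitted together (15 sums) and shared an estimate of this spread for each gene. Of the 7 genes, 6 passed the filter on low counts and were tested, and *Zfp683* did not pass it. *Tmem176b*+ NK cells overlap the other NK gates and were tested only against the NK cells without *Tmem176b*, in a separate fit of 6 sums.

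*Eomes* separated the NK gates from each other. In *Itgam*+ NK cells it was at 278 ± 119 CPM (n = 3), with 358, 335 and 142 CPM in the 3 libraries. In *Itga1*+ NK cells it was at 103 ± 17.97 CPM (119, 108 and 83.6 CPM), and in *Tmem176b*+ NK cells at 47.7 ± 17.0 CPM (62.8, 51.2 and 29.2 CPM). Kaede-red was the lowest library in each NK gate, and the 3 gates kept this order within every library. Among T cells *Eomes* was at 21.5 ± 8.56 CPM in CD8 T cells (27.6, 25.2 and 11.7 CPM), 17.9 ± 16.1 CPM in γδ T cells (7.23, 36.5 and 10.0 CPM) and 5.47 ± 1.37 CPM in Treg cells (4.46, 7.02 and 4.91 CPM). The γδ value rests on 62 UMIs, 36 of them in Kaede-green 2. Of the 10 pairs among the 5 gates tested together, 9 differed in *Eomes*, and the exception was γδ T against CD8 T cells (adjusted p = 0.42). The call between γδ T and Treg cells sets a gate led by 1 library against a level near background.

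*Tbx21* varied less between the NK gates. It was at 89.2 ± 2.77 CPM in *Itgam*+ (89.8, 91.6 and 86.2 CPM), 88.8 ± 5.95 CPM in *Tmem176b*+ (85.2, 95.7 and 85.6 CPM) and 68.1 ± 1.73 CPM in *Itga1*+ NK cells (69.7, 68.3 and 66.3 CPM). The values of *Itga1*+ NK cells lay below those of both other NK gates in each library. CD8 T cells followed at 54.3 ± 10.4 CPM (49.8, 46.8 and 66.1 CPM), Treg cells at 35.3 ± 9.51 CPM (33.2, 26.9 and 45.6 CPM) and γδ T cells at 17.6 ± 6.46 CPM (10.4, 19.3 and 23.0 CPM). In these T cell gates Kaede-red was the highest library. Of the 10 pairs, 9 differed, all but *Itga1*+ against *Itgam*+ NK cells (adjusted p = 0.095).

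*Zfp683* was found at a low level in CD8 T cells and was rare or not found in the other gates. CD8 T cells held 218 UMIs of it in 204 of 9001 cells (26, 51 and 141 UMIs), or 1.73 CPM with an exact Poisson 95% interval of 1.51 to 1.98 CPM that covers counting error only. *Itga1*+ NK cells held 19 UMIs in 18 cells (1, 0 and 18 UMIs) and *Tmem176b*+ NK cells 11 UMIs (0, 0 and 11). Kaede-red held most UMIs of all genes in both gates. No *Zfp683* UMI was counted in *Itgam*+ NK, Treg or γδ T cells, where the same kind of interval reaches up to 0.676, 0.195 and 0.940 CPM over the 3 libraries. The 9 UMIs in *Itga1*+ NK cells that also held *Tmem176b* came from 332 cells, and the other 10 from 1982 cells.

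*Prdm1* was led by T cells. Treg cells held 59.2 ± 7.57 CPM (53.1, 56.8 and 67.6 CPM), γδ T cells 37.96 ± 8.95 CPM (28.1, 45.6 and 40.2 CPM) and CD8 T cells 13.1 ± 0.784 CPM (12.6, 14.0 and 12.8 CPM). Among NK cells it was at 17.9 ± 5.57 CPM in *Itgam*+ (18.04, 23.5 and 12.3 CPM), 4.91 ± 2.69 CPM in *Itga1*+ (7.55, 5.00 and 2.17 CPM) and 4.63 ± 2.09 CPM in *Tmem176b*+ cells (5.98, 5.69 and 2.22 CPM). The libraries of *Itga1*+ and *Itgam*+ NK cells did not overlap. Of the 10 pairs, 8 differed, and neither Treg against γδ T cells (adjusted p = 0.077) nor CD8 T against *Itgam*+ NK cells (0.19) passed the threshold.

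*Rora* had the opposite order to *Eomes* in the NK gates. It was highest in γδ T cells at 544 ± 55.6 CPM (585, 480.5 and 566 CPM), then in Treg cells at 309.7 ± 11.1 CPM (322, 306 and 301 CPM), in *Tmem176b*+ NK cells at 218 ± 45.7 CPM (230.2, 257 and 168 CPM) and in CD8 T cells at 119 ± 18.5 CPM (110.2, 141 and 107 CPM). No library of one of these gates overlapped another gate. *Itga1*+ NK cells held 39.6 ± 16.5 CPM (36.0, 57.7 and 25.2 CPM) and *Itgam*+ NK cells 27.2 ± 6.38 CPM (23.9, 34.5 and 23.1 CPM). These last 2 gates overlapped and were the 1 pair of 10 that did not pass the threshold (adjusted p = 0.054).

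*Gata3* was the flattest of the 6 tested genes across the gates, if flatness is taken as the ratio of the highest to the lowest mean. Its level was 89.5 ± 10.7 CPM in Treg cells (99.96, 89.9 and 78.6 CPM), 83.7 ± 6.30 CPM in *Itgam*+ NK cells (84.7, 89.4 and 76.9 CPM) and 78.7 ± 24.9 CPM in *Tmem176b*+ NK cells (103, 79.6 and 53.4 CPM). It was 59.0 ± 6.84 CPM in γδ T cells (52.2, 65.9 and 59.0 CPM), 59.0 ± 16.3 CPM in CD8 T cells (64.5, 71.9 and 40.7 CPM) and 54.4 ± 15.9 CPM in *Itga1*+ NK cells (67.9, 58.2 and 36.9 CPM). Of the 10 pairs 6 differed. Treg against *Itgam*+ NK cells (adjusted p = 0.92) and the 3 pairs among the lower gates did not pass the threshold (adjusted p = 0.77 to 0.93).

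*Id2* was found in every gate. *Itgam*+ NK cells held 1048 ± 180.0 CPM (1206, 1087 and 852 CPM), *Tmem176b*+ NK cells 728 ± 81.2 CPM (731, 808 and 646 CPM) and *Itga1*+ NK cells 677 ± 48.2 CPM (709, 699.8 and 621 CPM). Treg cells held 617 ± 72.4 CPM (623, 542 and 686 CPM), CD8 T cells 586 ± 142 CPM (440.3, 592 and 724 CPM) and γδ T cells 472 ± 7.03 CPM (464, 472 and 478 CPM). Every library of *Itgam*+ NK cells was above every library of the other gates. The 4 pairs with *Itgam*+ NK cells and the pair of γδ T with *Itga1*+ NK cells differed, and the other 5 of the 10 pairs did not pass the threshold.

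**Figure D1:**
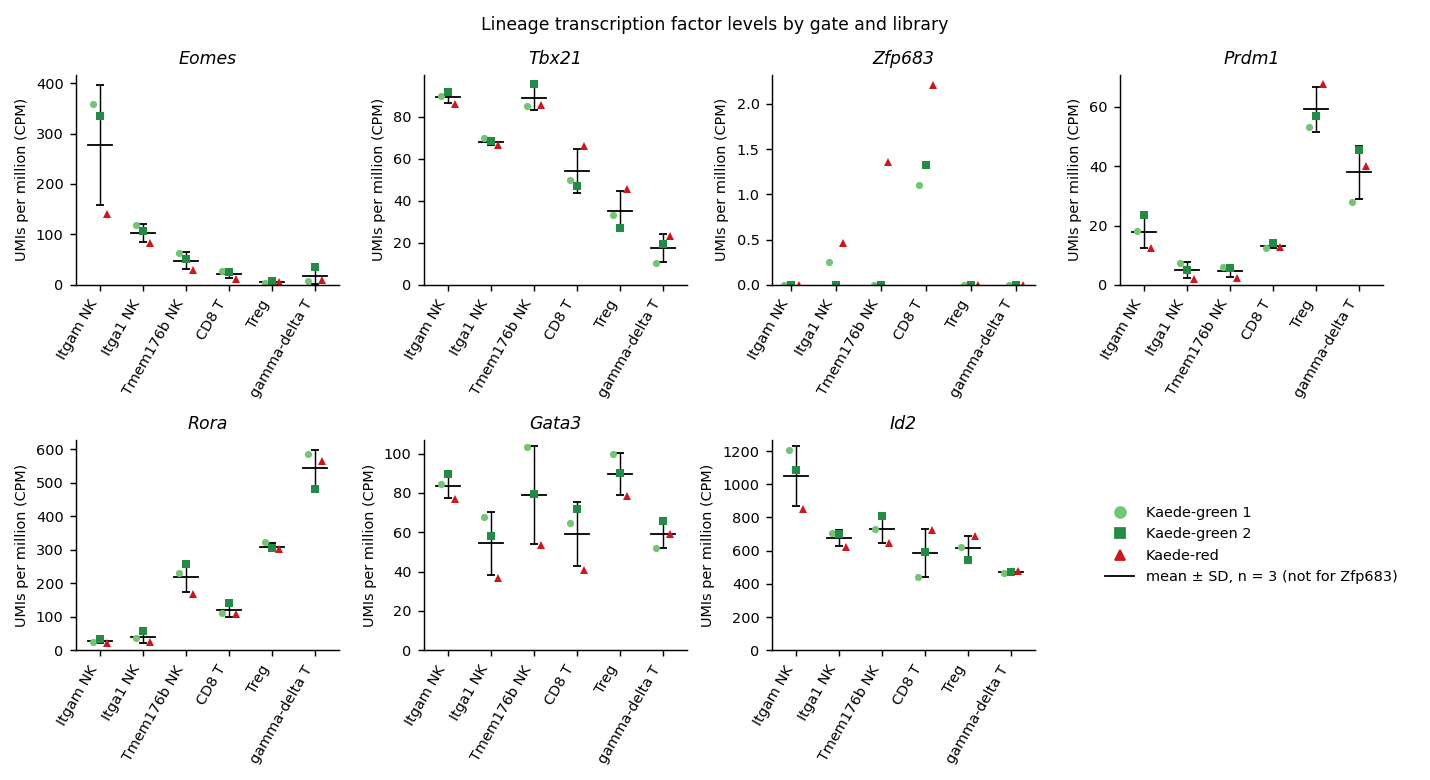
Level of each transcription factor in CPM (y axis, starting at 0) in the 6 gates (x axis), with 1 point per library and the mean ± SD of the 3 libraries except for *Zfp683*. *Eomes* falls from 278 CPM in *Itgam*+ to 103 CPM in *Itga1*+ and 47.7 CPM in *Tmem176b*+ NK cells, while *Rora* is at 27.2, 39.6 and 218 CPM in the same gates.

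The detection of transcripts in single cells gave the same order for *Eomes* and *Rora*. With each cell thinned to 2000 UMIs, *Eomes* was found in 39.7 ± 11.2% of *Itgam*+, 19.5 ± 4.25% of *Itga1*+ and 9.06 ± 4.00% of *Tmem176b*+ NK cells (SD, n = 3). For *Rora* the shares were 4.75 ± 1.16%, 6.91 ± 1.78% and 31.9 ± 3.32%, and 60.8 ± 5.90% of γδ T cells and 41.8 ± 0.630% of Treg cells. B cells, taken here as a reference for background, numbered 232, and whether they express any of these factors themselves was not tested. After thinning to the same depth, *Eomes* was found in 0.667% of them, *Tbx21* in 0.586%, *Prdm1* in 0.881%, *Rora* in 0.914%, *Gata3* in 0.665% and *Id2* in 11.8%. For *Eomes*, *Tbx21* and *Gata3* these shares were 0% in Kaede-green 1 and 2.04%, 1.79% and 2.03% in Kaede-green 2. Treg cells held *Eomes* at 1.11% and 1.34% in the same 2 libraries. *Prdm1* was found there in 0.964% and 0.736% of B cells. It was found in 2.30% and 1.51% of *Itga1*+ and in 1.66% and 1.62% of *Tmem176b*+ NK cells. Over the 3 libraries, shares of Treg (0.969 ± 0.460%) and γδ T cells (2.15 ± 2.32%) with *Eomes* were within 1 SD of the background over all B cells. So were those of *Itga1*+ (0.624 to 2.30% in the libraries) and *Tmem176b*+ NK cells (1.36 ± 0.490%) with *Prdm1*. Fitted differences whose lower group is one of these are limited by the background, which rests on 154, 76 and 2 B cells in the 3 libraries. *Tbx21*, *Rora*, *Gata3* and *Id2* were above it by more than 1 SD in all 6 gates. Without thinning, *Eomes* was found in 74.7% of *Itgam*+ NK cells (592 of 793) and 1.72% of B cells.

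The question between *Itga1*+ and *Itgam*+ NK cells is how NK cells with a residence integrin differ in these factors from those with the integrin of circulating NK cells. Of the 6 factors, 4 were lower in *Itga1*+ NK cells and none was higher. *Prdm1* was lower at a log2 fold change of -2.24 ± 0.35 (SE, adjusted p = 0.00052), *Eomes* at -1.25 ± 0.24 (0.0015), *Id2* at -0.54 ± 0.15 (0.012) and *Gata3* at -0.54 ± 0.15 (0.016). Each of these 4 had the same sign in all 3 libraries, and the lower *Prdm1* level was near the background in B cells, which limits the size of its difference. *Eomes* was at -1.59, -1.64 and -0.76 within the libraries and *Prdm1* at -1.26, -2.23 and -2.50, from CPM without further scaling. *Rora* (0.59 ± 0.22, adjusted p = 0.054) and *Tbx21* (-0.34 ± 0.15, 0.095) did not pass the threshold. In this comparison 32.9% of the 10776 genes tested were called, 17.6% higher and 15.3% lower in *Itga1*+ NK cells, so the share of these factors that was lower exceeded the background. With only the cells of 4000 to 12000 UMIs, a window chosen after seeing the depths, *Eomes* (-1.10, adjusted p = 0.011) kept its call, *Rora* gained one (1.17, 0.016), and *Prdm1* (-0.93, 0.12), *Id2* (-0.31, 0.34) and *Gata3* (-0.13, 0.79) lost theirs, while 171 genes were called in all. Without either Kaede-green library *Id2* lost its call (adjusted p = 0.089 and 0.11), and without Kaede-green 2 so did *Gata3* (0.12). Over 15 alternative settings *Eomes* was called in 15 (adjusted p up to 0.027), *Prdm1* in 14, *Id2* and *Gata3* in 11 (up to 0.34 and 0.79) and *Rora* in 8 (0.00091 to 0.31).

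Summed over the 3 libraries, 1054 of the 1546 *Rora* UMIs of *Itga1*+ NK cells were in cells that also held *Tmem176b*. Kaede-red held 976 of the 1546, and in Kaede-green 1 the cells with *Tmem176b* did not hold most of the *Rora* UMIs. With the cells that met more than 1 gate left out, 332 *Itga1*+ NK cells with *Tmem176b* held 168 ± 45.9 CPM of *Rora* (146, 221 and 137 CPM), and the 1982 without it 17.5 ± 7.96 CPM (21.6, 22.5 and 8.30 CPM). *Eomes* was at 32.4 ± 1.88 CPM (30.5, 34.2 and 32.4 CPM) and 115 ± 20.8 CPM (130.3, 124 and 91.4 CPM) in the same cells. With the *Tmem176b*+ cells left out of both gates, the *Rora* difference between *Itga1*+ and *Itgam*+ NK cells turned to -0.55 (adjusted p = 0.17). *Tbx21* was at 84.8 ± 9.94 CPM with and 65.1 ± 3.53 CPM without *Tmem176b*, against 90.03 ± 0.431 CPM in the 778 *Itgam*+ NK cells without *Tmem176b*. *Itgam*+ NK cells with *Tmem176b* numbered 15.

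*Tmem176b*+ NK cells were compared with the 7594 NK cells without *Tmem176b* to see whether cells with an ILC gene differ from other NK cells in the lineage factors. *Rora* was higher and *Eomes* and *Prdm1* were lower. *Rora* was at 23.2, 30.4 and 10.6 CPM in the other NK cells and differed by a log2 fold change of 3.398 ± 0.14 (adjusted p = 2.7e-07), or 10.5-fold. *Eomes* was at 233, 209 and 100.2 CPM in the other NK cells and differed by -1.96 ± 0.09 (6.5e-07), with -1.89, -2.03 and -1.78 within the libraries. *Prdm1* was at 13.8, 10.99 and 3.97 CPM there and differed by -1.03 ± 0.21 (0.020), again down to near the background. *Tbx21* (0.25 ± 0.10, adjusted p = 0.29), *Gata3* (0.27 ± 0.10, 0.20) and *Id2* (-0.25 ± 0.09, 0.23) did not pass the threshold. The 3 called of 6 compare with 4.26% of the 11333 genes tested, 2.28% higher and 1.99% lower. *Rora* and *Eomes* kept their calls without any 1 library and in cells of 4000 to 12000 UMIs. *Prdm1* lost its call without Kaede-green 1 (adjusted p = 0.072) or Kaede-green 2 (0.091) and with DESeq2 (0.085), and was called in 8 of 14 alternatives. Without the library block 47 genes were called, *Rora* among them (adjusted p = 0.0090) and *Eomes* not (0.070).

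*Itga1*+ NK cells were also compared with CD8 T cells, the cytotoxic T cells of the same tumors. *Eomes* (log2 fold change 2.44 ± 0.24, adjusted p = 1.4e-06) and *Tbx21* (0.41 ± 0.13, 0.032) were higher in the NK cells. *Rora* (-1.57 ± 0.17, 5.8e-06) and *Prdm1* (-1.75 ± 0.27, 0.00013) were lower, each in all 3 libraries. The *Prdm1* level of the NK cells was near the background in B cells, which limits the size of its difference. *Gata3* (-0.07 ± 0.13, adjusted p = 0.77) and *Id2* (0.28 ± 0.15, 0.18) did not pass the threshold. Of all genes tested 27.7% were called, 14% higher and 13.7% lower in the NK cells. The *Tbx21* difference was 0.48 and 0.55 in the Kaede-green libraries and 0.0027 in Kaede-red, and the call was lost without Kaede-green 1 (adjusted p = 0.21) or Kaede-green 2 (0.37), while 12 of 16 alternative settings kept it (adjusted p = 0.00078 to 0.37). Without Kaede-red *Id2* was called higher in the NK cells (0.48, adjusted p = 0.0044), as in 2 of the 16 alternatives.

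Treg cells, which restrain other lymphocytes, differed from CD8 T cells in 5 of the 6 factors. *Prdm1* was higher by 2.04 ± 0.21 on the log2 scale (adjusted p = 2.0e-06), *Rora* by 1.26 ± 0.17 (3.0e-05) and *Gata3* by 0.49 ± 0.13 (0.011). *Eomes* was lower at -2.00 ± 0.31 (0.00013) and *Tbx21* at -0.77 ± 0.14 (0.00053). The *Eomes* level of Treg cells was near the background in B cells, which limits the size of its difference. *Id2* (-0.06 ± 0.15, adjusted p = 0.82) did not pass the threshold. All 5 called factors had the same sign in each library, against a background of 30.7% of genes called, 15.5% higher and 15.2% lower. *Gata3* lost its call without Kaede-green 1 (adjusted p = 0.062) and was called in 12 of 15 alternatives (0.0026 to 0.097), and the other 4 were called in all 15.

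In γδ T cells 3 of the 6 factors differed from CD8 T cells, against 34.7% of all genes, 16.8% higher and 17.9% lower. *Rora* was higher by 2.12 ± 0.17 on the log2 scale (adjusted p = 2.8e-07) and *Prdm1* by 1.44 ± 0.27 (0.00069), while *Tbx21* was lower at -1.72 ± 0.19 (7.5e-06). These held in all 3 libraries. *Eomes* (-0.41 ± 0.37, adjusted p = 0.42), *Gata3* (-0.04 ± 0.16, 0.86) and *Id2* (-0.40 ± 0.15, 0.054) did not pass the threshold. In cells of 4000 to 12000 UMIs, *Eomes* (-1.23, adjusted p = 0.031), *Gata3* (-0.67, 0.0040) and *Id2* (-0.45, 0.030) were called lower in γδ T cells. Over 15 alternatives *Id2* was called in 7 (0.00024 to 0.24), *Eomes* in 2 and *Gata3* in 1, and *Rora*, *Prdm1* and *Tbx21* in all.

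The remaining 6 pairs were used to order the gates, and the background is given as the percent of genes called, called higher and called lower. CD8 T cells differed from *Itgam*+ NK cells in 5 factors, 1 higher and 4 lower, background 38.3%, 19.5% and 18.8%. *Eomes* was the widest of these at -3.69 ± 0.25. Treg cells differed from *Itgam*+ NK cells in 5 (2 higher, 3 lower, background 45.3%, 23.2% and 22.1%) and from *Itga1*+ NK cells in 5 (3 higher, 2 lower, background 45.9%, 21.9% and 24%). *Eomes* was lower in Treg cells than in both NK gates, and no fold is given since its 109 UMIs in 1645 Treg cells were within 1 SD of the background in B cells. γδ T cells differed from *Itgam*+ NK cells in all 6 (2 higher, 4 lower, background 25.2%, 12.8% and 12.4%), from *Itga1*+ NK cells in 5 (2 higher, 3 lower, background 43.7%, 20.3% and 23.3%) and from Treg cells in 4 (2 higher, 2 lower, background 37.1%, 18.5% and 18.6%). *Rora* was 19.6-fold higher in γδ T than in *Itgam*+ NK cells and 1.82-fold higher than in Treg cells.

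**Figure D2:**
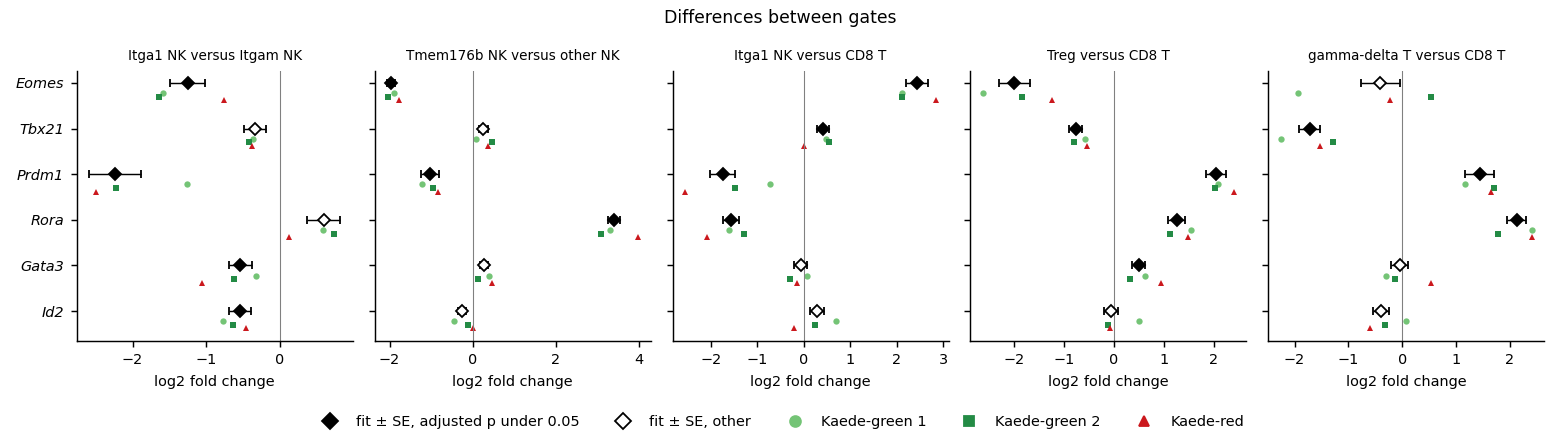
Log2 fold change of each transcription factor (rows) in the 5 comparisons (panels), as the edgeR estimate ± SE (diamonds, filled where called) and as the ratio of CPM within each library (colored points). *Eomes* lies at -1.25, -1.96 and 2.44 in the 3 NK comparisons, and the points of *Id2* against CD8 T cells lie on both sides of 0.

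Beside the 7 genes, 4 lists of related genes were counted. Of 28 other transcription factors of NK cells and ILCs, 27 were tested between *Itga1*+ and *Itgam*+ NK cells. A single one was higher, *Ikzf2* (Helios, 1.06 on the log2 scale), and 11 were lower, among them *Klf2* (-1.85), *Zeb2* (-1.20), *Tox* (-1.20) and *Runx1* (-1.12). Of all genes 17.6% were higher and 15.3% lower, and the median of the list was -0.55, against -0.0048 for all genes. Of 6 genes that T-box factors are known to bind, 3 were lower, *S1pr5* (-2.55), which guides exit from tissue, *Ifng* (-1.63) and *Il2rb* (-0.43), with a median of -0.42. Of 4 genes that Hobit and Blimp-1 are known to repress, 2 were lower, *Klf2* and *S1pr1* (-1.83), with a median of -1.06. None of the 3 tested of 7 genes linked to GATA3 and RORα was called (median 0.13).

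In *Tmem176b*+ NK cells, 26 of the other factors were tested. *Zbtb16* (PLZF, 2.01 on the log2 scale), *Ikzf2* (1.40) and *Maf* (0.82) were higher, and *Runx1* (-0.67) and *Nfil3* (-0.66), which NK cell development needs, were lower, with a median of 0.053 against -0.014 for all genes, of which 2.28% were higher and 1.99% lower. Of the T-box genes *Cxcr3*, a chemokine receptor, was higher (0.61), and *Prf1* (-1.10), *Ifng* (-0.81) and *Gzmb* (-0.65) were lower (median -0.73). None of the 4 genes repressed by Hobit and Blimp-1 was called (median -0.30). Of 3 tested genes linked to GATA3 and RORα, *Il7r*, the IL-7 receptor chain of ILCs, was higher (2.69, adjusted p = 1.3e-05, median 1.55).

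Against CD8 T cells, *Itga1*+ NK cells had 7 of the 27 other factors higher, such as *Zbtb16* (3.04), *Tcf4* (2.13), *Runx1* (1.97) and *Ahr* (1.75), and 8 lower, such as *Bcl11b* (-5.17), a T cell commitment factor, and *Tox* (-2.12), with a median of -0.16 against 0.0041 for all genes, of which 14% were higher and 13.7% lower. Among the T-box genes 3 were higher, *Prf1* (0.97), *Il2rb* (0.76) and *Gzmb* (0.73), and 2 lower, *Ifng* (-1.59) and *Cxcr3* (-1.45), with a median of 0.74. Of the Hobit and Blimp-1 genes *Ccr7* (-4.07) and *S1pr1* (-2.30) were lower (median -1.49), and of the GATA3 and RORα genes *Il7r* (-4.35) and *Icos* (-1.71) were lower (median -1.71). In Treg cells against CD8 T cells, 8 of the 27 other factors were higher, such as *Maf* (5.06) and *Ikzf2* (2.63), and 8 were lower, such as *Bach2* (-2.54), *Tcf7* (-1.94) and *Runx3* (-1.75), with a median of -0.058 against -0.022 for all genes, of which 15.5% were higher and 15.2% lower. Of the T-box genes 4 were lower, *Ifng* (-3.87) and *Prf1* (-2.36) among them, and *Cxcr3* was higher (1.28, median -1.46). *Tcf7* and *Ccr7* (-0.85) of the Hobit and Blimp-1 genes were lower (median -0.47), and *Il1rl1*, the IL-33 receptor gene (4.10), and *Icos* (2.11) were higher (median 2.11). In γδ T cells 8 of the other factors were higher, such as *Zbtb16* (8.05), *Maf* (3.84) and *Runx1* (2.25), and 5 lower, with a median of 0.10 against -0.059 for all genes, of which 16.8% were higher and 17.9% lower. There, 3 T-box genes were lower, *Ifng* (-3.36), *Prf1* (-2.55) and *Gzmb* (-1.73), with a median of -1.38. *Ccr7* was lower (-2.88) and *S1pr1* higher (1.40, list median 0.63), and *Il7r* (1.43) and *Icos* (1.35) were higher (list median 1.35).

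The levels also depended on how many UMIs of a gate's gene a cell held. *Eomes* in NK cells with 0, 1, 2 and 3 or more UMIs of *Tmem176b* was at 233, 87.5, 67.8 and 42.6 CPM in Kaede-green 1, at 209, 107, 43.8 and 21.0 CPM in Kaede-green 2, and at 100.2, 59.9, 24.3 and 19.0 CPM in Kaede-red. *Rora* at the same steps was at 23.2, 196, 106 and 301 CPM, at 30.4, 173, 302 and 287 CPM, and at 10.6, 86.6, 162 and 199 CPM. The first UMI of *Tmem176b* thus already parted the cells in each library, and *Eomes* was lower at every further step. With 0, 1 and 2 or more UMIs of *Itgam*, *Eomes* was at 201, 324 and 378 CPM, at 178, 314 and 338 CPM, and at 89.99, 133 and 162 CPM. With 0, 1, 2 and 3 or more UMIs of *Itga1* it was at 248.7, 147, 86.6 and 84.2 CPM in Kaede-green 1 and at 222, 134, 102 and 94.1 CPM in Kaede-green 2, but at 102, 87.1, 84.0 and 82.8 CPM in Kaede-red. The Kaede-red cells without *Itga1* were therefore close to the Kaede-green cells with 2 or more UMIs of it. Cells with more UMIs of *Itga1* were deeper, with library medians of 5870 to 11741 UMIs at 0 and 19086.5 to 30927 UMIs at 3 or more. NK cells with 0 and 1 UMI of *Cd3e*, the limit of the NK gate, held 169.5 ± 69.4 and 146 ± 51.5 CPM of *Eomes* and 42.3 ± 13.7 and 33.9 ± 9.20 CPM of *Rora*. These steps are descriptions and carry no test.

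**Figure D3:**
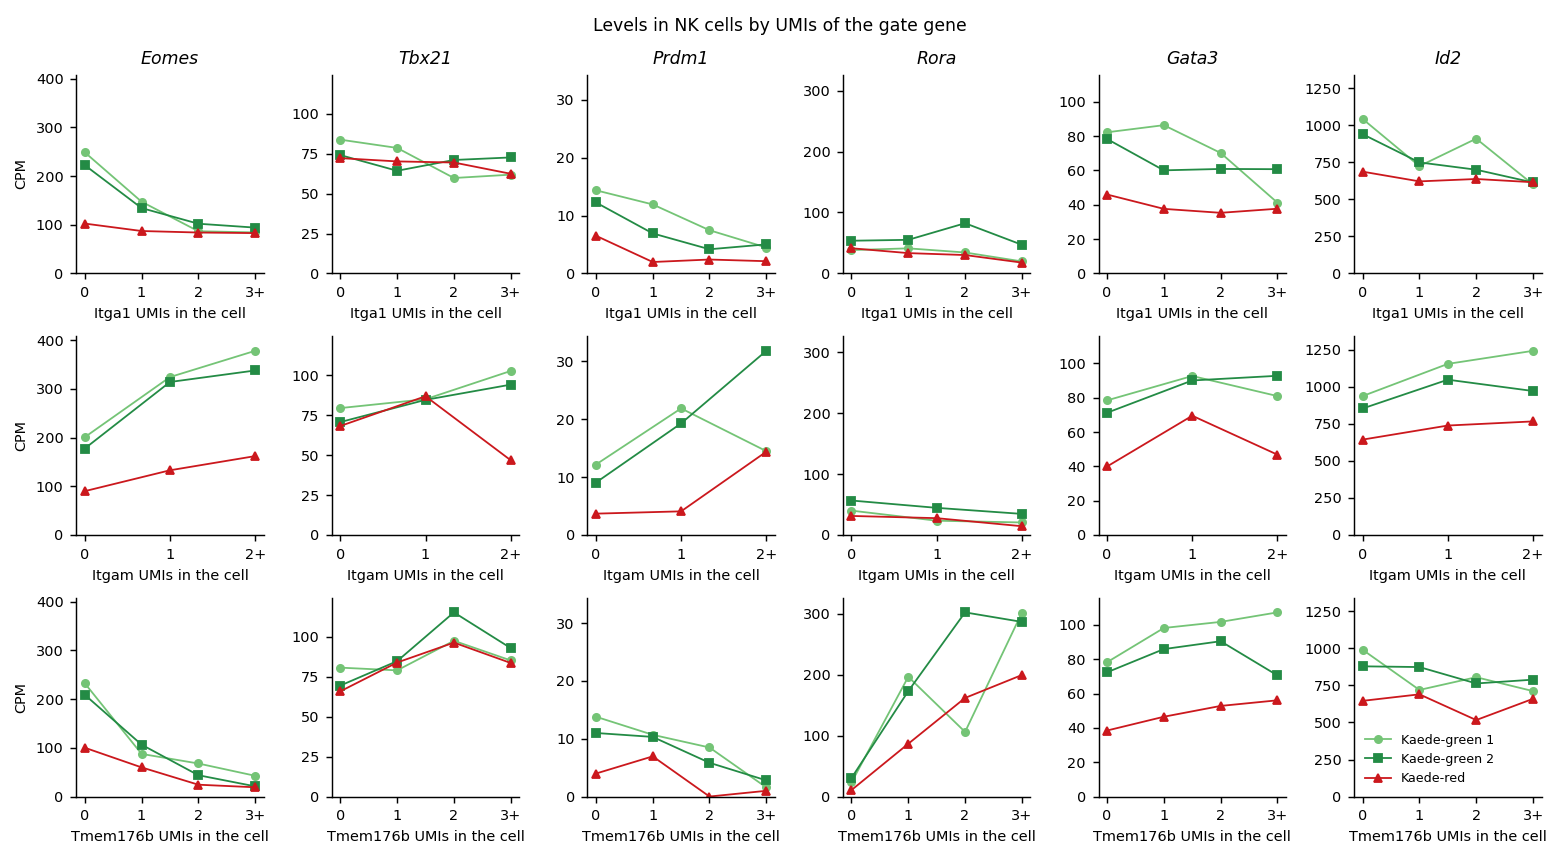
Level of 6 transcription factors in CPM (y axis, starting at 0) in NK cells by the UMIs of *Itga1*, *Itgam* or *Tmem176b* in the cell (x axis), with 1 line per library. *Eomes* is lower and *Rora* higher at 1 UMI of *Tmem176b* than at 0 in every library, and the Kaede-red line of *Eomes* is flat across *Itga1* UMIs at 82.8 to 102 CPM.

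Co-detection was measured as the share of cells with UMIs of both genes over the product of the single shares, after thinning each cell to 2000 UMIs, so that a ratio of 1 is what independent genes would give. *Eomes* and *Rora* were found together less often than that in *Itga1*+ NK cells (ratios 0.43, 0.63 and 0.47), in *Tmem176b*+ NK cells (0.26, 0.25 and 0.53) and in all NK cells (0.69, 0.67 and 0.42). *Itga1*+ NK cells pool cells with *Tmem176b* (168 CPM of *Rora*, 32.4 CPM of *Eomes*) and without it (17.5 and 115 CPM). All NK cells pool gates with unlike levels of both genes. The part of this pooling in the ratios was not tested. In *Itgam*+ NK cells the ratio was 1.03, 1.06 and 1.00, on 16.8 expected cells over the 3 libraries. The Kaede-red value there rests on 1.14% of 76 cells. In *Tmem176b*+ NK cells 18.3 cells were expected and 6.21 observed. In CD8 T cells it was 0.78, 0.77 and 0.64, and in Treg cells 0.87, 0.96 and 0.73. The last values, and those of γδ T cells (0.55, 0.51 and 0.33), rest on 6.42 and 5.73 expected cells, against 25.4 expected and 13.1 observed in *Itga1*+ NK cells. With all UMIs the mean ratio was closer to 1, at 0.70 in *Itga1*+, 0.57 in *Tmem176b*+ and 0.75 in all NK cells.

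Of the other pairs, some were above and some below 1. *Eomes* and *Tbx21* had ratios of 1.02, 1.04 and 1.01 in all NK cells. *Rora* and *Gata3* had ratios of 1.43, 1.29 and 1.46 in all NK cells, which pool gates with unlike *Rora* levels. Within the NK gates the ratios were 1.02, 1.02 and 1.37 in *Itga1*+ and 1.05, 1.20 and 1.25 in *Tmem176b*+ cells. In *Itgam*+ NK cells they were 1.41, 1.21 and 0.38, on 5.82 expected cells. The same pair had ratios of 1.24, 1.26 and 1.14 in CD8 T cells and 1.17, 1.24 and 1.18 in Treg cells, but 0.97, 0.91 and 0.91 in γδ T cells. *Tbx21* and *Rora* had ratios of 1.05, 1.39 and 1.30 in *Itga1*+ and 1.11, 1.06 and 1.05 in *Tmem176b*+ NK cells. In CD8 T cells *Eomes* and *Id2* were below 1 (0.84, 0.87 and 0.82) and *Prdm1* and *Id2* above it (1.17, 1.19 and 1.14). The pairs of a gate share cells and library, and no test was made over cells.

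**Figure D4:**
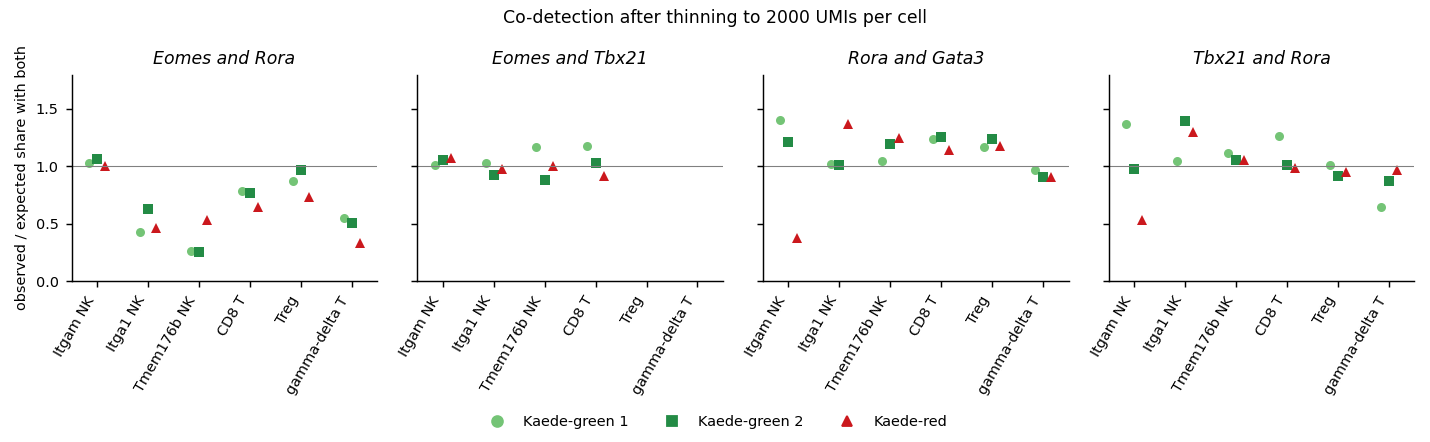
Observed over expected share of cells with both genes after thinning to 2000 UMIs (y axis, line at 1) in the 6 gates (x axis), with 1 point per library for 4 pairs of genes. *Eomes* with *Rora* lies between 0.25 and 0.63 in *Itga1*+ and *Tmem176b*+ NK cells and near 1 in *Itgam*+ NK cells, there on 16.8 expected cells. Gates with fewer than 5 expected cells are left blank.

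With all UMIs, 419 of 763 *Tmem176b*+ NK cells (54.9%, exact binomial 95% interval 51.3 to 58.5%) held *Rora* without *Eomes*, with 55.4%, 55.8% and 54.3% in the 3 libraries. This share was 11.2% of *Itga1*+ NK cells (9.98 to 12.6%), 1.89% of *Itgam*+ NK cells (1.06 to 3.10%) and 4.82% of the NK cells without *Tmem176b* (4.35 to 5.33%). *Tbx21* without *Eomes* was found in 44.6% of *Tmem176b*+ (41.0 to 48.2%), 19.3% of *Itga1*+ (17.7 to 20.9%) and 9.21% of *Itgam*+ NK cells (7.29 to 11.4%). In the 3 libraries these shares were 38.5, 45.6 and 45.9%, 17.8, 20.1 and 19.3%, and 9.05, 7.07 and 18.4%. They were not thinned, so their order between gates of unlike depth is not a difference at equal depth. After thinning to 2000 UMIs, *Tbx21*, with or without *Eomes*, was found in 13.7, 12.7 and 12.7% of *Itga1*+ NK cells. In *Itgam*+ NK cells it was then found in more, at 17.6, 17.6 and 16.9%. The intervals in this paragraph pool the cells of the 3 libraries. They cover counting error only and not the spread between libraries. *Eomes* with *Tbx21* was found in 31.5% of *Itgam*+, 43.4% of *Itga1*+ and 18.7% of *Tmem176b*+ NK cells. In the 3 libraries this was 29.0, 35.7 and 28.9% of *Itgam*+ against 32.0, 32.2 and 49.2% of *Itga1*+ NK cells. After thinning to 2000 UMIs, the share was higher in *Itgam*+ NK cells in every library. It was then 8.3, 8.4 and 4.8% of *Itgam*+ against 3.3, 2.3 and 1.9% of *Itga1*+ NK cells. The median *Itga1*+ NK cell of Kaede-red held more UMIs than the median *Itgam*+ NK cell of any library, which bears on such unthinned shares. Neither *Eomes* nor *Tbx21* was found in 72.2% of Treg and 88.9% of γδ T cells. The median cell held 3 of the 7 factors in each gate except γδ T cells, where it held 2, and no cell held all 7.

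The genes whose levels were most like those of a factor over the 18 sums (6 gates in 3 libraries) are given as a description by Pearson's r of log2(CPM + 1). The sums share libraries, and *Tmem176b*+ NK cells share cells with other gates. *Eomes* was followed most closely by *Gzma* (0.98), the granzyme A gene, *Mef2a* (0.97) and *Bcl2l11* (0.97). *Tbx21* was followed by *Litaf* (0.97), *Sh3bp2* (0.95) and *Zbed3* (0.94), *Prdm1* by *Pik3c2a* (0.96), *Cdc42se2* (0.95) and *Rsbn1* (0.95), and *Rora* by *Bst2* (0.92), *Rgcc* (0.91) and *Sfmbt2* (0.91). For *Gata3* the closest were *Gimap3*, *Ccnd2* and *Jak2* (each 0.87), and for *Id2* *Naip2*, *Adamts10* and *AW112010* (each 0.90). Among the factors themselves r was 0.68 for *Eomes* with *Tbx21*, -0.81 for *Eomes* with *Rora*, and 0.76 for *Tbx21* with *Id2*.

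Kaede color was described without a test, since Kaede-red is 1 library and its own spread is unknown. A difference was counted where Kaede-red lay on the same side of both Kaede-green libraries, each time by more than they differed from each other. Of the 36 pairs of 6 factors and 6 gates, 21 met this, 3 with higher and 18 with lower levels in Kaede-red. In *Itgam*+ NK cells 5 of 6 factors met it, all lower, but so did 50.7% of all genes (29.2% lower, 21.5% higher). In *Itga1*+ NK cells it was 5 of 6, all lower, against 46.3% (32.2% lower, 14.1% higher). In *Tmem176b*+ NK cells it was 5 of 6, all lower, against 35.9% (23% lower, 13% higher). In CD8 T cells 1 was higher and 2 were lower, against 25% and 23.3% of all genes (48.4% in sum). In Treg cells 2 were higher and 1 was lower, against 23.8% and 18.4% (42.2%), and in γδ T cells none met it, against 31.1% (15.5% higher, 15.7% lower). In the 3 NK gates the share of factors with lower levels was above that of all genes, while in CD8 T and Treg cells the counts were close to the background. The depth of NK cells moved with color, with medians of 6083, 8148 and 17241 UMIs, as did the cycling markers in *Itga1*+ NK cells, and their part in these ratios was not tested.

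*Eomes* was lower in Kaede-red in 4 gates. Its log2 ratio to Kaede-green 1 and Kaede-green 2 was -1.33 and -1.24 in *Itgam*+ NK cells, -0.51 and -0.37 in *Itga1*+ NK cells, -1.11 and -0.81 in *Tmem176b*+ NK cells and -1.24 and -1.11 in CD8 T cells. The Kaede-green libraries differed by -0.30 to -0.09 in these gates. In γδ T cells they differed by 2.28, which is more than either ratio to Kaede-red. *Gata3* was lower in 5 gates, for example at -0.88 and -0.66 in *Itga1*+ NK cells and -0.67 and -0.82 in CD8 T cells, where the Kaede-green libraries differed by -0.22 and 0.16. *Prdm1* was lower in all 3 NK gates, at -1.81 and -1.21 in *Itga1*+ NK cells, and higher in Treg cells, at 0.35 and 0.25. Its level in *Itga1*+ and *Tmem176b*+ NK cells was near the background in B cells, which limits the size of these ratios. In *Tmem176b*+ NK cells they rest on 8, 17 and 18 UMIs. In *Itgam*+ NK cells the counting intervals of *Prdm1*, with 8 UMIs in Kaede-red, and of *Gata3* span 0. *Tbx21* was higher in CD8 T (0.41 and 0.50) and Treg cells (0.45 and 0.76), and in *Itgam*+ and *Itga1*+ NK cells lower by less than 0.1, with counting intervals that span 0.

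*Id2* was lower in the 3 NK gates, from -0.50 in *Itgam*+ to -0.17 in *Itga1*+ NK cells. In CD8 T cells its ratios were 0.72 and 0.29, but the Kaede-green libraries themselves differed by 0.43. *Rora* met this count in *Tmem176b*+ NK cells alone (-0.46 and -0.62). *Zfp683* in CD8 T cells was 0.98 (exact 95% interval 0.39 to 1.66) and 0.73 (0.27 to 1.23) higher in Kaede-red on the log2 scale, and the Kaede-green libraries differed by 0.25 (-0.45 to 1.00). The intervals cover counting error only.

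**Figure D5:**
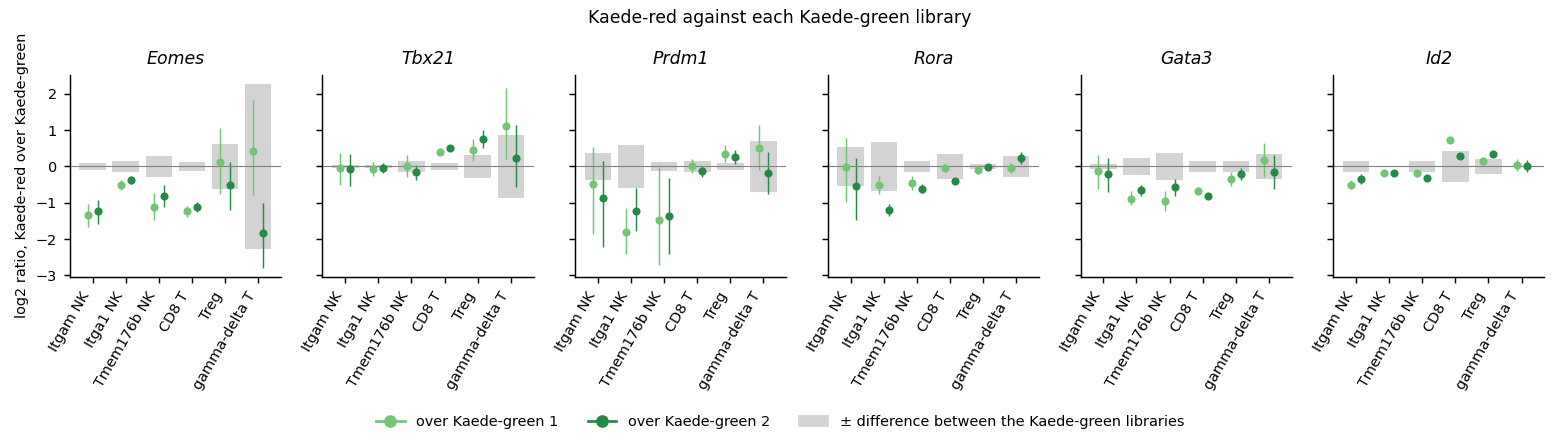
Log2 ratio of CPM in Kaede-red over each Kaede-green library (y axis) for 6 factors in the 6 gates (x axis), with exact 95% counting intervals and, in gray, the difference between the Kaede-green libraries in both directions. *Eomes* and *Gata3* lie below the gray bars in *Itga1*+ NK and CD8 T cells, and *Tbx21* lies above them in CD8 T and Treg cells.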

How the data were processed

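Of each library, the authors deposited a filtered gene by cell matrix of UMI counts, made with Cell Ranger, whose version is 6.1.2 in the submitters' processing notes and 6.0.1 in the matrix headers. Genes of GRCm38 were counted, and the counts are not normalized. Following the study's methods, a cell had to show 1000 to 6000 genes and less than 7.5% of its UMIs from mitochondrial genes. Doublets (476, 562 and 304 cells) were removed as Leiden subclusters with high Scrublet scores (scanpy 1.11.5). The 7 genes and all lists were chosen with earlier results of these data known, and no list is independent support.

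Counts were summed per gate and library. The 5 gates without shared cells were fitted together in edgeR 4.0.16 (R 4.3.3) with TMM scaling, a filter on low counts (filterByExpr) and the library as a block. The 9 genes that define gates were left out of the tests. The SE of an edgeR log2 fold change was derived from the test, as its absolute value over the square root of the F statistic. Named genes are the 7 factors, the 3 most alike to each, the gate genes and up to 6 of each list, those called with the largest folds, apart from 1 gene that is not reported here. The scripts were tested on simulated data. Besides the alternatives listed below, cells with UMIs of B cell or macrophage genes were left out in a setting. Ratios between colors had 0.5 UMIs added, and thinned values are exact expectations at 2000 UMIs. The depth of the libraries was 87193225, 129438292 and 175848894 UMIs. The alternatives were DESeq2 1.42.0, other size factors, no low-count filter, no library block, doublets kept, other gates and each library left out, and, chosen after seeing the data, cells without cycling UMIs, cells of 4000 to 12000 UMIs, T cells without *Ncr1*, means over cells and, for the CD8 T comparison, NK cells without *Tmem176b*.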

Additional observations from a re-analysis of the deposited data

Results flagged for a closer look

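For 2 factors the Kaede-red level lay beyond the difference between the Kaede-green libraries with opposite signs in different gates, given as the mean log2 ratio to both Kaede-green libraries. *Tbx21* was at 0.45 in CD8 T cells and 0.61 in Treg cells, and at -0.065 in *Itgam*+ and -0.060 in *Itga1*+ NK cells. *Prdm1* was at 0.30 in Treg cells and -1.51 in *Itga1*+ NK cells, where its level in Kaede-red was 2.17 CPM and near the background in B cells. In a further 2 cases Kaede-red went against both Kaede-green libraries within a comparison. The log2 ratio of *Gata3* in γδ T over CD8 T cells was 0.54 in Kaede-red, against -0.31 and -0.13 in Kaede-green 1 and 2. For *Id2* in *Itga1*+ NK over CD8 T cells it was -0.22 in Kaede-red, against 0.69 and 0.24. None of these differences between gates or colors was tested, since Kaede-red is 1 library.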

How the results depend on the processing

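Of 450 values of a factor in a comparison under another setting, 391 kept their direction and their side of the threshold, 23 lost a call, 25 gained one and 11 turned in sign. None of the 11 that turned had been called. *Rora* between *Itga1*+ and *Itgam*+ NK cells turned to -0.55 with *Tmem176b*+ cells left out. *Gata3* between *Itga1*+ NK and CD8 T cells ranged from -0.16 to 0.011 with 1 library left out and was 0.033 in cells of 4000 to 12000 UMIs. *Id2* between Treg and CD8 T cells ranged from -0.21 to 0.056 with 1 library left out, with 0.043 without Kaede-green 2, and was 0.017 without cells with cycling UMIs. Between γδ T and CD8 T cells, *Eomes* ranged from -1.10 to 0.18 with 1 library left out and *Gata3* from -0.31 to 0.14, with 0.055 without Kaede-green 2, 0.013 with RLE size factors and 0.012 with DESeq2. The color ratio of *Tbx21* in *Itgam*+ NK cells turned to 0.0039 with a stricter NK gate, and 21 pairs beyond the Kaede-green difference became 20 to 23.

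Between *Itga1*+ and *Itgam*+ NK cells 3545 genes were called, 1320 to 3365 without 1 library, 1713 without cells with cycling UMIs and 171 in cells of 4000 to 12000 UMIs. For *Tmem176b*+ against other NK cells 483 were called, 405 to 808 without 1 library and 918 with no low-count filter. Without 1 library the calls ranged from 1624 to 3344 for *Itga1*+ NK against CD8 T cells (2990 with all libraries), from 1859 to 3940 for Treg cells (3304) and from 2316 to 3208 for γδ T cells (3734), where 2456 were called without cycling cells. The cause was not tested.

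Between colors no paired analysis was possible because the Kaede-red library carries no replicate number. The gates were compared within libraries, with the library as a block, and without the library block 3182, 47, 2270, 2547 and 3157 genes were called in the 5 comparisons. Levels moved by more than 1 SD in 44 of 336 recomputed values, co-detection ratios in 51 of 264 and color ratios in 11 of 144. Cells of a color come from 1 or 2 libraries, and the *Itgam*+ NK cells of Kaede-red number 76. *Zfp683* did not pass the filter on low counts, so no difference between gates was tested for it. Outside CD8 T cells, 18 of its 19 UMIs in *Itga1*+ NK cells and all 11 in *Tmem176b*+ NK cells came from Kaede-red, which is 1 library.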
